A study of Mus musculus with 9 samples.

Results

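Open chromatin regions that lie at the ends of more than 1 protein-coding gene were compared between untreated B16 mouse melanoma cells, B16 cells after chronic interferon gamma, and a B16-derived line that resists immune checkpoint blockade. A region was taken as shared when it lay within 1 kb of an annotated start or 3′ end of at least 2 different coding genes. Of 15669 open regions, 1567 (10%) were shared in this sense: 1526 by 2 genes and 41 by 3 or more. Together they held ends of 3011 of the 21627 coding genes on chromosomes 1 to 19 and X.

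Neighbouring mammalian genes are often arranged head to head, with their starts a short distance apart on opposite strands. The stretch between them then serves as a bidirectional promoter for both. Such promoters are typically rich in CpG dinucleotides, lack a TATA box and serve housekeeping genes of DNA repair, mitochondria and RNA processing. A few immune gene pairs are built in the same way, among them Psmb9, a catalytic subunit of the immunoproteasome, and Tap1, which carries peptides into the endoplasmic reticulum for MHC class I.

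The assay was ATAC-seq, in which a transposase inserts adapters where chromatin is accessible. All tumour cells were injected into mice and sorted from tumours harvested on day 15. B16_NT (3 libraries) came from B16 cells with no treatment, and 499_NT (3 libraries) from the resistant line 499, also untreated. B16_IFNy (3 libraries) came from B16 cells kept in interferon gamma before injection, for 2 weeks in replicates 1 and 2 and for 3 weeks in replicate 3. The labels name no host strain and do not say which libraries came from separate animals, so p-values measure the spread between these libraries, which may in part be technical. Line 499 is 1 derived line.

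The deposited lists held 15045, 25374 and 20139 peaks in B16_NT, 16240, 13175 and 11183 in B16_IFNy, and 15396, 9221 and 11768 in 499_NT. To put libraries on the same footing, the 9214 peaks of each with the strongest p-value on chromosomes 1 to 19 and X were kept and merged into regions. The shortest reported peak was 150 bp or longer in B16_NT_1, B16_NT_3, B16_IFNy_3 and 499_NT_3, and shorter in the other 5. This puts the lists in 2 classes that cross the groups, called fragment classes here. The name rests on peak length alone, since fragment length was not measured. Tests of the libraries' values in B16_IFNy and 499_NT together against B16_NT were repeated within these classes, and those of pairs of groups were not. A marker gene counted as open where a peak lay within 1 kb of either of its ends. In each library 3 to 6 of 7 melanocyte markers were open. None of the 5 leukocyte, 2 endothelial and 2 epithelial markers was. Of 3 fibroblast and mural markers, 0 to 2 were open per library. Col1a1 was open in 7 libraries, all except 499_NT_1 and 499_NT_2, and Pdgfrb in 1. Among the melanocyte markers, Sox10 and Mlana were open in 1 library each. The part of fibroblast and mural cells in the results was not tested. A peak in sorted bulk cells does not tell a site open in fewer cells from one less open in each.

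Most shared regions were pairs of starts. Strands were known for both genes of 1155 regions, and 822 of these (71.17%) held starts on opposite strands. In 521 the starts diverged, leaving a gap with a median of 99 bp (quartiles 45 and 228 bp), and 263 of them were less than 100 bp apart. In 301 the opposite-strand starts faced each other, the plus-strand start lying before the minus-strand start, and are called overlapping here. Exon positions were not used. A further 282 held the start of a gene close to the 3′ end of its upstream neighbour on the same strand. Only 8 lay at 3′ ends alone, and 371 had a gene whose strand was not in the RefSeq promoter table.

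The stretches between divergent starts are shown for 9 regions on which the results below turn: 5 fixed gene pairs or strong regions that were open in at least 8 libraries, and 4 that switched between groups, being kept by 3 of 3 libraries on one side of a comparison and by 0 of 3 on the other. Each is the plus strand of GRCm38.p6 from the RefSeq promoter table, with capitals for the bases between both starts and 25 bases of each transcribed side in lower case.
Psmb9/Tap1 (chr17:34187306-34187580): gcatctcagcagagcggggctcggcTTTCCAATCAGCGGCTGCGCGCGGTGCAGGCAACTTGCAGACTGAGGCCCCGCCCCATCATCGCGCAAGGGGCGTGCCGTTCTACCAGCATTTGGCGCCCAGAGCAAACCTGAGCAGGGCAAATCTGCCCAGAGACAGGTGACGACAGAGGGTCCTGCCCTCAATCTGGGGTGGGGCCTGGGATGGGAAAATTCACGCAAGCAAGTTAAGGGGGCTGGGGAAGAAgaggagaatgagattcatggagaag
Atm/Npat (chr9:53536804-53536913): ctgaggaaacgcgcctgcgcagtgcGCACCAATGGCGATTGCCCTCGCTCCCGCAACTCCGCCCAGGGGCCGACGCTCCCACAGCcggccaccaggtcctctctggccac
Sirt3/Psmd13 (chr7:140882285-140882418): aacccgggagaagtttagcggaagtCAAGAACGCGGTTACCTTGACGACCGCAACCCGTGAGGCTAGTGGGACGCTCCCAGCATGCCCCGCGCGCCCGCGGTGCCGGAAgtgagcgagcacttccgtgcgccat
Casc1/Etfrf1 (chr6:145210993-145211158): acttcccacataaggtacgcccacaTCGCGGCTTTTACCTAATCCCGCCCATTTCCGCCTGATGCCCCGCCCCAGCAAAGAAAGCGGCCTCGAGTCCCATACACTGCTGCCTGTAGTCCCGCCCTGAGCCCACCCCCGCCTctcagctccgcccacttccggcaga
Mrps12/Sars2 (chr7:28741797-28741981): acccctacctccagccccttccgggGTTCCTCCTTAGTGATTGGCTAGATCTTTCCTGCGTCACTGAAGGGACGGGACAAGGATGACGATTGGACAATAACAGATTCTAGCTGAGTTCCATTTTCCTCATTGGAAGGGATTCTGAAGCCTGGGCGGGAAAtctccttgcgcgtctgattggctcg
Dolk/Nup188 (chr2:30286330-30286431): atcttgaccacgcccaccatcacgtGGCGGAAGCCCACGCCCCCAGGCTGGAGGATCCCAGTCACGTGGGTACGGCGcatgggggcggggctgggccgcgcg
Rab24/Prelid1 (chr13:55321956-55322079): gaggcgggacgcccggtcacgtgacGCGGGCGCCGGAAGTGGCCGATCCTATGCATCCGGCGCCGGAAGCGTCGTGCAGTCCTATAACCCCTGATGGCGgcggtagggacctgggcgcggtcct
Aifm1/Rab33a (chrX:48513539-48513687): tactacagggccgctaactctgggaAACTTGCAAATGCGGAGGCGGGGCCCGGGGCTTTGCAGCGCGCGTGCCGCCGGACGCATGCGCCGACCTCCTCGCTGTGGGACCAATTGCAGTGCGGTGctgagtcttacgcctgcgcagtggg
Cetn2/Nsdhl (chrX:72918320-72918545): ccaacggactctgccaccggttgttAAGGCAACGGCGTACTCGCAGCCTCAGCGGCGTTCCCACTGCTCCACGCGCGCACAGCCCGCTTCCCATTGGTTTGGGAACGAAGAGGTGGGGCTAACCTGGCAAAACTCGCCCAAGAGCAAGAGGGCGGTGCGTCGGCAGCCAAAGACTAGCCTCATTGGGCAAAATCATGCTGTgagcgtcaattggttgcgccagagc

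The gap between starts ran from 52 bp at Dolk/Nup188 to 225 bp at Psmb9/Tap1 in these 9, and GC content from 53.0% at Mrps12/Sars2 to 72.5% at Dolk/Nup188. A CCAAT box, the core of NF-Y sites, begins at base 29 of both the Psmb9/Tap1 and the Atm/Npat stretch, counted from 1 at the first printed base. Mrps12/Sars2 holds 4 such boxes on either strand and Cetn2/Nsdhl 3. Atm encodes the kinase that signals DNA double-strand breaks and Npat a coactivator of histone genes. Sirt3 is a mitochondrial deacetylase and Psmd13 a lid subunit of the proteasome. Mrps12 and Sars2 both serve mitochondrial translation.

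Shared regions were called in every library more often than other regions. All 9 libraries called 752 (47.99%) of the 1567 shared regions, and a single library called 106 (6.765%). Of the 7024 regions at a single gene end, 2992 (42.6%) were called in all 9, and of the 7078 at no coding gene end, 737 (10.41%). Within a library, 77.32% of shared and 72.66% of one-end regions were called on average. The difference of 4.668 percentage points (SD 1.883) had the same sign in 9 of 9 libraries, an exact two-sided sign-flip permutation test over libraries giving p = 0.00391, the smallest it can give. Among regions called in all 9 libraries, shared ones were 30.89 bp wider at the median (SD 10.19; 9 of 9 libraries). A wide region reaches a second gene end more easily, so the choice of members itself favours width and this difference is a description. Regions were merged from the same peak lists that give the calls, so the choice may favour calls and rank too. All libraries share the same regions, so p-values of such comparisons describe these libraries only. They cannot separate gene arrangement from the choice of members. Rank within the library differed less clearly, by 1.105 percentile points (SD 1.634; higher in 6 of 9 libraries, exact sign-flip p = 0.082), where percentile 100 stands for the strongest peak kept.

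Detection varied with how the genes were arranged. Of the 521 divergent regions 58.93% were called in all 9 libraries, and of the 301 overlapping ones 54.82%. The value was 29.43% for the 282 regions at a start and a same-strand 3′ end, below the 45.12% of 5479 one-end regions at a start. It was 10.42% for 144 one-end regions at a 3′ end, and none of the 8 shared regions at 3′ ends alone was called in every library. The 41 regions with 3 or more genes stood at 65.85%, among them Pmel/Rab5b/Cdk2 (chr10:128695804-128696975), where Pmel encodes the melanosome fibril protein and Cdk2 a cell cycle kinase.

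Regions with starts on opposite strands exceeded same-strand regions in all measures and in all 9 libraries. Their call share was 83.06% against 65.84%, a difference of 17.22 percentage points (SD 3.486). Median covered width, the bases of a region under the library's peaks, was 708.6 bp against 580.0 bp, a difference of 128.6 bp (SD 19.85). Rank percentile was 74.95 against 65.62. The differences in call share and rank each had an exact sign-flip permutation p of 0.00391 over n = 9 libraries. After Benjamini-Hochberg adjustment over 12 such tests the p was 0.00587. The width difference is given without a test, because the choice of members depends on how far a region reaches. Against one-end regions at a start, opposite-strand regions were called more often by 8.404 percentage points (9 of 9 libraries, adjusted exact permutation p = 0.00587). They ranked higher by 2.271 percentile points (8 of 9, adjusted exact permutation p = 0.014). They were also wider by 54.94 bp (9 of 9 libraries), a value given without a test because the choice of members favours width. That choice may favour calls and rank as well, so the p-values between arrangements and against one-end regions describe these libraries only. No test for a change of such differences between B16_NT and the other groups passed, the lowest of 12 exact permutation p-values being 0.0595.

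Divergent and overlapping starts were close to each other. Their call shares were 83.64% and 82.06%, a difference of 1.583 percentage points (higher in 7 of 9 libraries, adjusted exact permutation p = 0.0977). Divergent starts ranked 2.891 percentile points higher (7 of 9, adjusted exact permutation p = 0.0427). Overlapping starts were 26.22 bp wider (9 of 9 libraries), given without a test because the choice of members depends on how far a region reaches. The p-values here describe these libraries only.

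**Figure D1:**
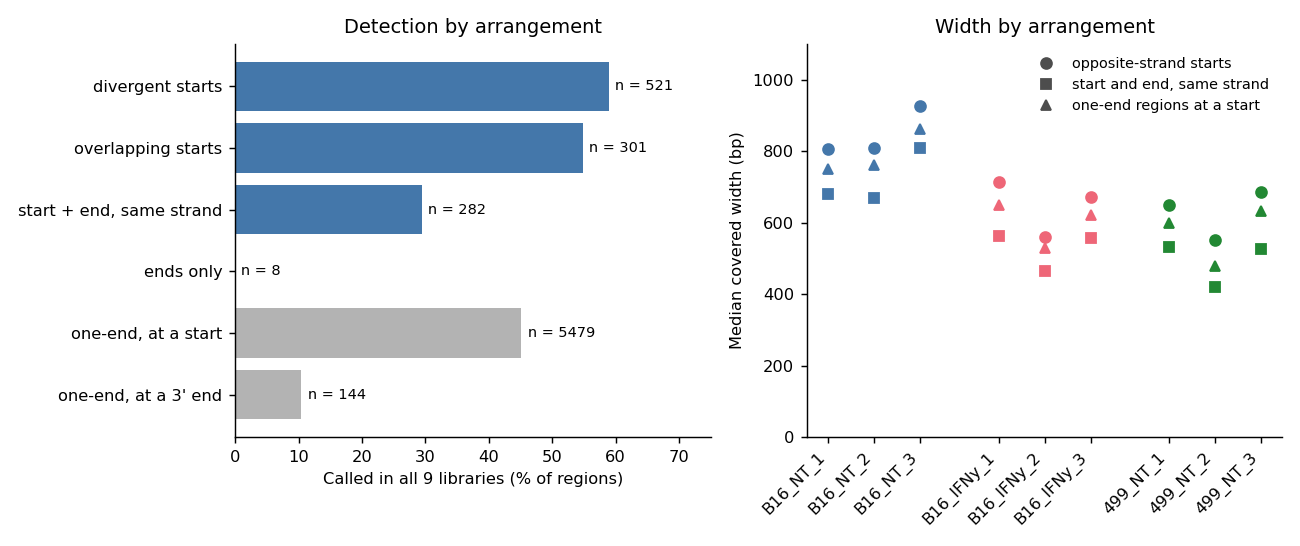
Left, share of regions called in all 9 libraries (%) by gene arrangement, with the number of regions beside each bar (blue, shared regions; grey, regions at 1 gene end). Right, median covered width (bp) in each library for opposite-strand starts (circles), a start with a same-strand 3′ end (squares) and one-end regions at a start (triangles). Divergent starts stand at 58.93% and same-strand pairs at 29.43%, and in each library the circles lie above the triangles and the triangles above the squares.

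Peak summits lay at the starts. At divergent regions the median distance from the strongest peak's summit to the nearer start was 52 to 68 bp over the 9 libraries, and 38.93% to 42.89% of summits lay between the starts. A single peak spanned both starts in 64.27% to 92.18% of the divergent regions called. At regions that pair a start with a same-strand 3′ end, the summit was nearer the start in 91.38% to 95.14%. Its median distance was 76 to 131 bp to the start and 620.5 to 661.5 bp to the 3′ end. In these regions the peak thus sat at the downstream gene's promoter, and the neighbour's 3′ end fell within reach of it.

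Divergent regions with starts further apart were wider. The mean covered width over libraries had a median of 641.3 bp for 71 regions with a gap under 50 bp and of 769.7 bp for 24 regions with a gap of 500 bp or more. Over the 307 divergent regions called in every library, gap and width had a Spearman rho of 0.262, given as a description since these regions share libraries and depth. The widening was seen in each library, with 753 and 990.5 bp in B16_NT_1, 654 and 808 bp in B16_IFNy_1 and 589 and 783 bp in 499_NT_1 as the values for the shortest and longest gaps. In 499_NT_2 it was least, at 522 and 531.5 bp.

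**Figure D2:**
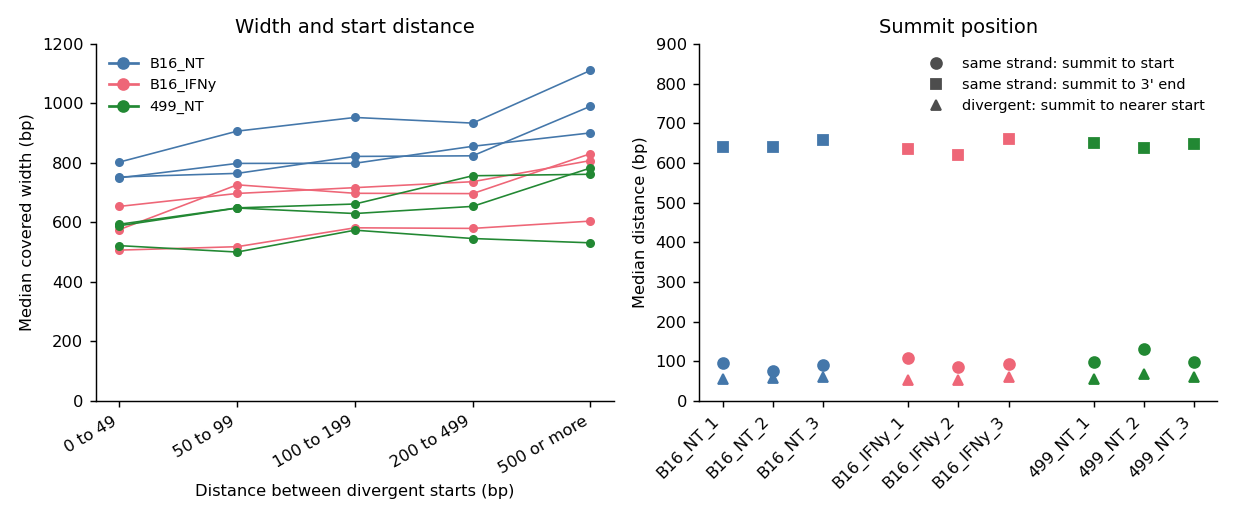
Left, median covered width (bp) of divergent regions called in all 9 libraries against the distance between both starts (bp), 1 line per library. Right, median distance (bp) from the peak summit to the start (circles) and to the 3′ end (squares) of same-strand regions, and to the nearer start of divergent regions (triangles), per library. The B16_NT lines lie above the others at each distance, and summits lie 76 to 131 bp from the start but over 600 bp from the 3′ end.

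The distance limit was not a sharp boundary in the data. In 1007 shared regions (64.26%) the region itself overlapped the second gene end, and 57.89% of these were called in all 9 libraries. Of 121 regions whose second end lay in the last 250 bp inside the limit, 28.1% were called in all 9. Of 122 regions with a second end in the 250 bp just outside it, the value was 29.51%.

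Promoters at shared regions held ETS letters more often than other promoters. Promoters were searched on both strands over 300 bases, from 250 before to 50 after the annotated start, and a match is a match of letters, not a site shown to be bound. CCGGAAGT, a core of ETS factors such as GABP, was in 14.1% of 2351 promoters at shared regions and in 15.0% of 1718 with opposite-strand starts. It was in 9.26% of 5756 promoters at one-end regions, 1.22% of 11886 promoters that overlapped no region and 5.2% of all 21044 coding gene promoters. The YY1 motif AAGATGGCG was in 4.89%, 5.59%, 3.6%, 0.32% and 1.84% of the same sets, in that order. TATAAA was the rarer at shared regions, with 4.17% at shared, 5.61% at one-end and 18.4% at promoters without a region, against 12.7% of all. Of the printed stretches, Sirt3/Psmd13, Casc1/Etfrf1 and Rab24/Prelid1 hold the ETS letters.

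Other motifs stood at closer shares in shared and one-end regions. The SP1/KLF letters GGGCGG were in 70.1% of promoters at shared and 73.5% at one-end regions, against 46.7% of all promoters. CCAAT (NF-Y) was in 40.3% and 40.2%, against 38.5% of all, and the NRF1 palindrome in 2.76% and 2.87%, against 1.34%. TGACGTCA (CRE) was in 4.3% and 3.7%, against 2.26%, CACGTG (E-box) in 11.4% and 10.9%, against 7.91%, and the ZNF143 motif in 0.893% and 0.903%, against 0.428%. TGANTCA (AP-1) was in 2.89% and 3.89%, against 7.04%, and the core of the interferon-stimulated response element in 3.19% and 2.33%, against 3.38%. Median GC content was 62.7% in both sets and 56.7% in all promoters, and the ratio of observed to expected CpG was 0.848 at shared, 0.814 at one-end and 0.574 at all promoters. Each motif was searched alone, so matches of different motifs can overlap. Neighbouring starts share bases and a gene can have several, so promoters are not independent and no test was made.

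Gene groups at shared regions differed in how regularly they were open. Of 98 genes of DNA repair and replication, 39 had an end at 40 shared regions. All 9 libraries called 29 of these (72.5%), against 47.99% of all shared regions. Atm/Npat (chr9:53536472-53537333), Brca1/Nbr1 and Mcm4/Prkdc were among those open throughout. Of 45 splicing and snRNP genes, 14 had an end at 14 regions with 9 (64.29%) in all 9. The 35 regions of zinc finger genes and the 14 of tRNA synthetases both stood at 57.14%, and the 41 of the respiratory chain at 51.22%.

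Other groups were below the share for all members. The 39 regions of mitochondrial ribosomal proteins stood at 35.9%, the 11 of the proteasome at 36.36% and the 22 of cytosolic ribosomal proteins at 18.18%. The 17 regions of histone genes stood at 11.76%, with H2ac6/H2bc4 called in all 9 and H2ac11/H2bc11 in 1. Of 38 interferon and antigen presentation genes, 9 had an end at 9 shared regions, and Stat2/Apof and Psme2/Rnf31 were called in all 9 libraries. These shares describe lists of very different size and were not tested.

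Of 21 gene pairs chosen from textbook examples of shared promoters and from the interferon pathway, 14 had a shared region, and 10 of these were open in all 9 libraries. Hspd1/Hspe1, the mitochondrial chaperonin pair, Paics/Ppat of purine synthesis and Gart/Son were among them. Surf1/Surf2 was called in 1 library and Trp53/Wrap53 in 6. Parp9/Dtx3l, Psme1/Emc9 and Col4a1/Col4a2 have ends within 1 kb of each other but no shared region among the peaks kept, and Rsad2/Cmpk2, Nmi/Rbm43, Psmb1/Tbp and Polr2f/Sox10 have ends further apart.

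The shared regions with the best mean rank stood near the top of each library. Casc1/Etfrf1 (chr6:145210652-145211784), which pairs an axonemal dynein gene with a regulator of electron transfer flavoprotein, ranked 146, 102 and 57 of the 9214 peaks in B16_NT, 25, 134 and 51 in B16_IFNy and 51, 139 and 29 in 499_NT. The groups overlap, and the lowest of the 9 places is 146. Pdcd10/Serpini1, Etfdh/4930579G24Rik, Cnga4/Fam160a2 and Eny2/Nudcd1 were the other 4 with the best mean rank. Hnrnpa2b1/Cbx3 (chr6:51469038-51471197), the locus known for a ubiquitous chromatin opening element, was among the widest. It covered 1800, 1839 and 2125 bp in B16_NT, 1940, 1411 and 1443 bp in B16_IFNy and 1376, 1031 and 1808 bp in 499_NT, so 1 library of B16_IFNy and 1 of 499_NT reached the B16_NT range. Poglut2/Bivm, Fam72a/Srgap2, Cbx5/Hnrnpa1 and the predicted pair LOC108167694/Gm20783 were the other widest regions.

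The share of shared regions called did not differ between the groups beyond the spread of libraries. It was 80.41%, 74.35% and 74.92% in B16_NT, 79.26%, 79.51% and 74.79% in B16_IFNy and 81.11%, 74.73% and 76.83% in 499_NT. The groups overlap, and each has a high and a low library. Group means were 76.56% ± 3.347, 77.86% ± 2.656 and 77.56% ± 3.252 (SD, n = 3 each). B16_IFNy and 499_NT together exceeded B16_NT by 1.149 percentage points (exact two-sided permutation p = 0.643 over 84 arrangements), and by 0.2021 points within fragment classes (exact permutation p = 0.9). When a peak had to cover at least 50% of the region, the difference from B16_NT turned to -20.7 points (exact permutation p = 0.0357). Regions extend over all merged peaks and covered width was largest in B16_NT, so this setting also reflects width. With all deposited peaks the difference was -12.78 points (exact permutation p = 0.0595). List lengths are then unequal, with the longest in B16_NT_2 and B16_NT_3, and their part was not tested.

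Rank within the library also did not differ detectably. The median rank percentile of the 752 regions called throughout was 73.42, 71.77 and 74.25 in B16_NT, 74.5, 72.35 and 74.4 in B16_IFNy and 72.99, 71.26 and 73.78 in 499_NT. All 9 libraries lie within 71.26 and 74.5, and no group stands apart. The difference of both other groups from B16_NT was 0.07 percentile points (exact permutation p = 0.929), and its sign depended on the libraries and peaks used.

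**Figure D3:**
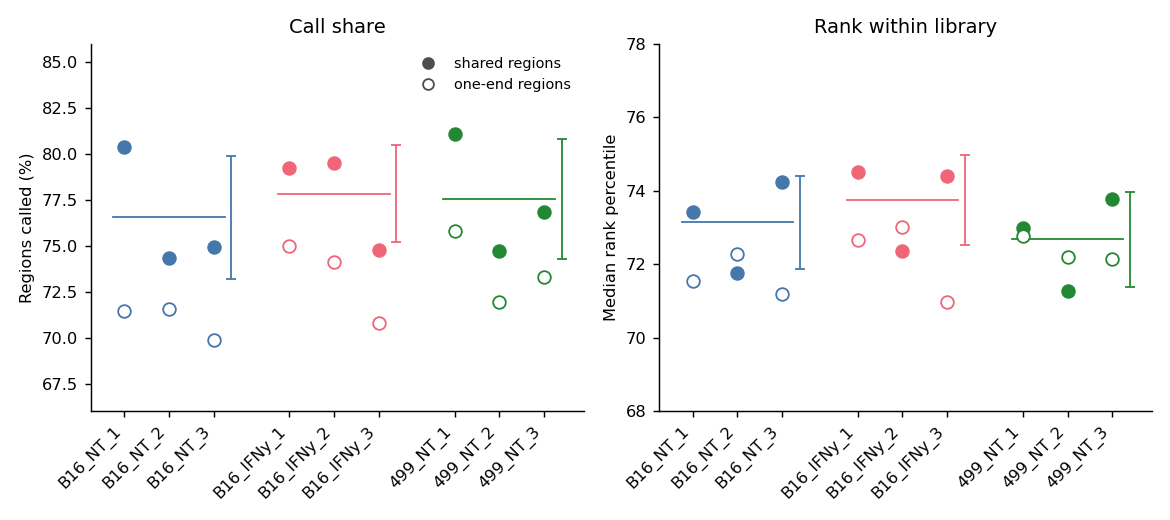
Share of regions called (%, left) and median rank percentile (right; 100 is the strongest peak kept) in each library, for shared regions (filled) and one-end regions (open). Both axes start above 0; lines are group means of the shared regions and bars their SD (n = 3). Shared regions were called more often than one-end regions in 9 of 9 libraries, and the groups overlap in both measures.

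Shared regions were narrower in B16_IFNy and 499_NT than in B16_NT. The median covered width of the 752 regions was 786.5, 787 and 899 bp in B16_NT, 696, 542 and 651.5 bp in B16_IFNy and 625.5, 515.5 and 651.5 bp in 499_NT. All 6 libraries of the other groups lie below all 3 of B16_NT. Group means were 824.2 ± 64.81, 629.8 ± 79.25 and 597.5 ± 72.19 bp (SD, n = 3 each). The other groups together were 210.5 bp narrower, a ratio of 0.7446 (exact two-sided permutation p = 0.0119, the smallest of 84 arrangements). Within fragment classes the difference was 191.6 bp in the same direction (exact permutation p = 0.0333, the smallest of 30 arrangements). Pair by pair, 3 libraries against 3 cannot give an exact p below 0.1. B16_IFNy was 194.3 bp and 499_NT 226.7 bp narrower than B16_NT (exact permutation p = 0.1 each), and 499_NT was 32.33 bp narrower than B16_IFNy (exact permutation p = 0.6).

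The narrowing was not particular to shared regions. One-end regions were 208.8 bp narrower in the other groups (exact permutation p = 0.0119), and shared minus one-end width differed by -1.667 bp between the groups (exact permutation p = 0.821). Signal height moved with width. The median summit pileup, the number of fragments stacked at the summit, was 41, 40 and 46 in B16_NT, 26, 18 and 25 in B16_IFNy and 23, 17 and 30 in 499_NT. The other groups were lower in 6 of 6 libraries, with a mean of 23.17 against 42.33 (exact permutation p = 0.0119; within fragment classes p = 0.0333, exact). Median fold enrichment over background, as the authors' peak lists give it, averaged 7.359 against 9.539 (exact permutation p = 0.0952; within fragment classes p = 0.0333, exact). No read depth was available for analysis here, and its part in width and pileup was not tested.

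**Figure D4:**
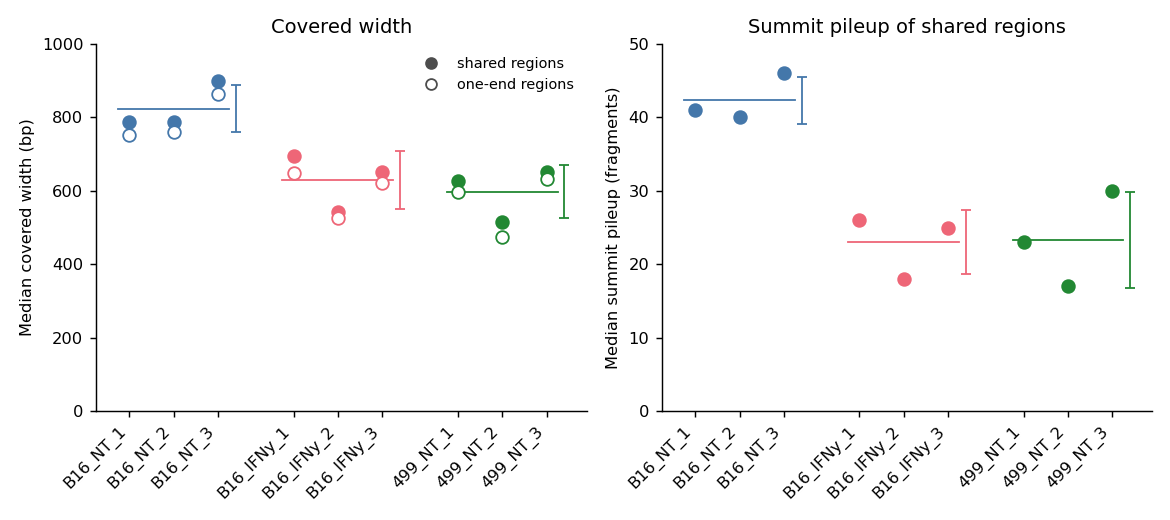
Median covered width (bp, left) of shared (filled) and one-end (open) regions and median summit pileup (fragments, right) of shared regions called in all 9 libraries, per library; lines are group means of shared regions and bars their SD (n = 3). The 3 B16_NT libraries lie above the other 6 in both panels, and filled and open points move together.

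Single regions were compared by rank with limma, over the 4481 regions called in all 9 libraries. None of the 752 shared regions passed an adjusted p of 0.05 in any of 4 comparisons. Of all 4481 regions, 0.0% passed in each direction for B16_IFNy against B16_NT, 499_NT against B16_NT and 499_NT against B16_IFNy. For both other groups against B16_NT, 0.0223% passed as higher and 0.0% as lower. At an unadjusted limma p under 0.05, 9 shared regions were higher and 9 lower in B16_IFNy against B16_NT, 24 and 18 in 499_NT against B16_NT, and 22 and 18 in 499_NT against B16_IFNy. These are 1.2% and 1.2%, 3.19% and 2.39%, and 2.93% and 2.39% of the shared regions, where 2.1% and 1.94%, 3.41% and 2.95%, and 2.79% and 2.92% of all 4481 regions had such a p. The lowest adjusted limma p among shared regions was 0.997, 0.661 and 0.457 in these comparisons. The regions with the lowest p were Tmem104/Nat9 and G3bp2/Uso1 for interferon, Bysl/Med20/Gm20517 and Atraid/Slc5a6 for 499_NT against B16_NT, and Ncaph2/Sco2 and Zfp511/Tubgcp2 for 499_NT against B16_IFNy.

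Atraid/Slc5a6, at the start of a vitamin transporter gene, ranked 3013, 6393 and 4122 in B16_NT, 2884, 1703 and 1673 in B16_IFNy and 543, 1409 and 583 in 499_NT. The 499_NT ranks are all stronger than those of the other groups. Tmem104/Nat9 ranked 8233, 7400 and 8838 in B16_NT, 4461, 3607 and 2329 in B16_IFNy and 7198, 5994 and 5294 in 499_NT. Here B16_IFNy is the strongest group and B16_NT the weakest, with no overlap, but neither region passed the adjusted test.

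The interferon-responsive pair Psmb9/Tap1 (chr17:34187124-34188038) was called in 8 of 9 libraries. It was not among the 9214 peaks kept in B16_NT_1 and ranked 8040 and 8395 in B16_NT_2 and B16_NT_3. It ranked 6679, 4131 and 2784 in B16_IFNy and 3676, 1730 and 2635 in 499_NT. Every library of the other groups placed it above every B16_NT library. Its summit pileup was 20, 21 and 24 in B16_NT, 17, 15.0 and 21 in B16_IFNy and 20, 18 and 27 in 499_NT, so that the raw height overlaps between groups. The median pileup of shared regions called throughout was lower in the other groups, with a mean of 23.17 against 42.33 in B16_NT. Raw heights are thus not on the same footing between groups. The pair's covered width was 722 and 613 bp in the 2 B16_NT libraries that called it, 575, 275 and 584 bp in B16_IFNy and 502, 425 and 610 bp in 499_NT. In a limma fit over the 10680 regions called in at least 3 libraries, added after seeing the data and with uncalled regions set to the lowest rank, the other groups differed from B16_NT by 2.41 normal scores (SE 0.65; limma adjusted p = 0.383). The pair did not pass.

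The other 2 interferon-pathway regions called in all 9 libraries ranked on opposite sides of B16_NT in 499_NT. Stat2/Apof, at the start of the gene for a type I interferon transcription factor, ranked 8589, 4155 and 3800 in B16_NT, 4581, 1493 and 2566 in B16_IFNy and 919, 3608 and 2047 in 499_NT. B16_IFNy overlaps B16_NT, while all 3 libraries of 499_NT place it above all 3 of B16_NT, the same direction as at Psmb9/Tap1, and it did not pass (limma adjusted p = 0.764). Psme2/Rnf31 (chr14:55590876-55591829), which holds the starts of a proteasome activator subunit and of a linear ubiquitin ligase, ranked 3247, 2645 and 675 in B16_NT, 5805, 3685 and 1031 in B16_IFNy and 5319, 4332 and 5116 in 499_NT. Its 499_NT ranks are weaker than those of B16_NT in every library, opposite to Psmb9/Tap1, and it did not pass (limma over regions in at least 3 libraries, adjusted p = 0.754). A second region at the 3′ end of Tap1 and the start of Psmb8 was called in 499_NT_3 only. Zbtb22/Tapbp was called in B16_IFNy_2 only. None of the 9 interferon and antigen presentation regions was called in all libraries of one group and none of another.

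The number of shared regions that switched between groups depended on the peaks kept. A region was counted as gained or lost when all 3 libraries of one group called it and none of the other did, among regions called in at least 3 of the 6. In B16_IFNy against B16_NT, 5 of 1297 shared regions were gained and 2 lost, where 0.59% of all regions were gained and 0.906% lost. In 499_NT against B16_NT, 11 of 1288 were gained and 9 lost, where 0.919% and 1.52% of all regions were. In 499_NT against B16_IFNy, 5 of 1308 were gained and 10 lost, where 0.627% and 0.875% of all regions were. These counts are near or below the share of all regions, and the comparisons share groups. Set beside one-end regions, the shares were lower at shared regions except for losses in 499_NT. Against B16_NT these losses were 0.699% of shared and 0.647% of one-end regions. Against B16_IFNy they were 0.765% and 0.597%. No test was made. With all deposited peaks, where B16_NT_2 and B16_NT_3 had the longest lists, the balance turned to losses. There were then 0 gained and 18 lost in B16_IFNy against B16_NT and 0 and 36 in 499_NT against B16_NT. The part of list length was not tested. When a peak had to cover 50% of the region, which also reflects width, the counts were 4 and 44 in B16_IFNy and 3 and 58 in 499_NT, both against B16_NT. Under the same settings 4.91% and 8.06% of all regions, and 5.08% and 7.96%, were lost, against 1.12% and 2.28%, and 3.86% and 5.25%, of the shared regions. The counts with 9214 peaks involved 34 different shared regions. All gained regions had a weaker peak in at least 1 deposited list of the other group, as did 7 of the 9 regions lost in 499_NT against B16_NT.

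In B16_IFNy the gained regions were Git2/Ankrd13a, Il17re/Il17rc (receptor subunits for interleukin 17), Dbndd1/Gas8, Pih1d2/Nkapd1 and Lrrc46/Mrpl10. The lost ones were Mrpl53/Ccdc142 and Bicral/Tbcc. Bicral/Tbcc (chr17:46890205-46891224), at the ends of a SWI/SNF subunit gene and a tubulin folding cofactor gene, ranked 5745, 6977 and 7427 in B16_NT and 5031, 4756 and 6317 in 499_NT. It was not among the peaks kept in any B16_IFNy library, and its pileup was 36, 27 and 31 in B16_NT and 15.0 and 11 in the 2 B16_IFNy lists that held it. The median pileup of shared regions called throughout was also lower in B16_IFNy, at 26, 18 and 25 against 41, 40 and 46 in B16_NT.

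In 499_NT against B16_NT the gained regions included Dolk/Nup188, LOC115489673/Hey1, Madd/Nr1h3, Dnajc2/Psmc2, Emc3/Fancd2 and Gmip/Lpar2. Dolk encodes dolichol kinase, Nup188 a nuclear pore protein and Hey1 a repressor downstream of Notch. Coq8b/Numbl, Dus2/Ddx28, Ccdc40/Tbc1d16 and LOC115488016/Prkch were also gained. Dolk/Nup188 (chr2:30285959-30286738) ranked 5265, 5067 and 6306 in 499_NT and 7001 in B16_IFNy_1, and was not kept in the other 5 libraries. Its pileup was 21, 18 and 17 in B16_NT and 18, 12 and 18 in 499_NT, so the raw heights overlap. The median pileup of shared regions called throughout was 41, 40 and 46 in B16_NT and 23, 17 and 30 in 499_NT. Raw heights are thus not on the same footing in both groups. In the B16_NT_1 list Dolk/Nup188 lay just past the peaks kept, at 9232.

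Lost in 499_NT against B16_NT were Mrpl53/Ccdc142, Tradd/Fbxl8, Kri1/Cdkn2d, Rab24/Prelid1, Prkag1/Kmt2d, Ubtd1/Ankrd2, Aifm1/Rab33a, Cetn2/Nsdhl and Naa10/Renbp. Tradd is an adaptor of the tumour necrosis factor receptor, Cdkn2d an inhibitor of CDK4 and CDK6, and Kmt2d a histone H3 lysine methyltransferase. Kri1/Cdkn2d, Prkag1/Kmt2d, Ubtd1/Ankrd2 and Naa10/Renbp each pair a start with a same-strand 3′ end. Only 1 gene of each of these pairs starts there, and Cdkn2d and Kmt2d may reach the region with their 3′ ends alone. Aifm1/Rab33a, Cetn2/Nsdhl and Naa10/Renbp lie on X, which holds 26 of the 1567 shared regions. Cetn2/Nsdhl (chrX:72918109-72918771), at the starts of a centrosomal centrin and a cholesterol synthesis enzyme, ranked 3211, 6918 and 7391 in B16_NT and 5948, 6192 and 7189 in B16_IFNy. It was not kept in any 499_NT library and had a deposited peak in 499_NT_1 alone, with a pileup of 9 against 19 to 27 in B16_NT. The median pileup of shared regions called throughout was also lower there, at 23 in 499_NT_1 against 41, 40 and 46 in B16_NT. Aifm1/Rab33a (chrX:48513217-48513732), with the gene for apoptosis-inducing factor, ranked 8112, 5279 and 5285 in B16_NT and 4289, 6189 and 8232 in B16_IFNy and was likewise not kept in 499_NT. Rab24/Prelid1 (chr13:55321754-55322593) ranked 5687, 5289 and 8840 in B16_NT and was otherwise kept in B16_IFNy_2 alone, at 9189.

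Between B16_IFNy and 499_NT, the regions gained in 499_NT included LOC115489673/Hey1, Cracr2b/Cd151, Gmip/Lpar2 and Bicral/Tbcc. Xkr8/Smpdl3b, Il17re/Il17rc, Ttll13/Ngrn, Spef1l/Adam8, Dbndd1/Gas8, Efcab9/Stk10, Htd2/Rpp14, Ccs/Ccdc87, Aifm1/Rab33a and Cetn2/Nsdhl were lost.

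The added limma fit over regions called in at least 3 libraries tested 1388 shared regions and called a few of these. In B16_IFNy against B16_NT it called 1 higher, Dbndd1/Gas8, and 1 lower, Bicral/Tbcc (limma adjusted p = 0.016 for the latter), where 0.14% and 0.272% of all regions were called. In 499_NT against B16_NT it called LOC115489673/Hey1 higher and Cetn2/Nsdhl and Aifm1/Rab33a lower (limma adjusted p = 0.0197 and 0.0298 for the last 2), where 0.225% and 0.337% were. In 499_NT against B16_IFNy, LOC115489673/Hey1 and Bicral/Tbcc were called higher and Dbndd1/Gas8, Cetn2/Nsdhl and Aifm1/Rab33a lower, where 0.103% and 0.159% were. In both other groups against B16_NT, Mrpl53/Ccdc142 was called lower and no shared region higher, where 0.3% and 0.0936% of all regions were. Dbndd1/Gas8, LOC115489673/Hey1 and Mrpl53/Ccdc142 were each kept in 3 libraries, all of 1 group. They entered the fit only through the group where they are high, so their calls are a description and no p is given. For Bicral/Tbcc, Cetn2/Nsdhl and Aifm1/Rab33a a whole group sat at the same assigned lowest rank, which leaves that group no spread between libraries, and the p-values rest on that assignment.

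**Figure D5:**
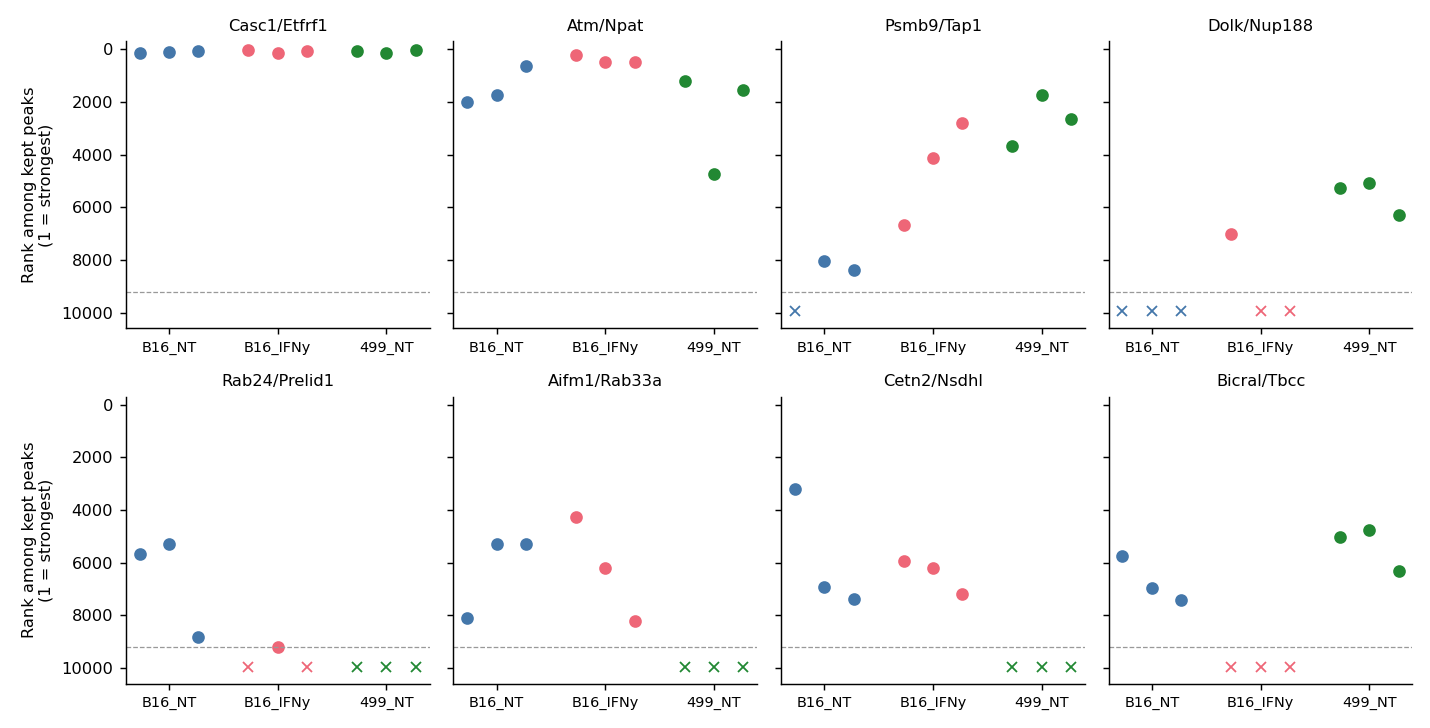
Rank among the 9214 peaks kept per library (1 is the strongest, at the top) for 8 shared regions, with 3 libraries per group; crosses below the dashed line mark libraries in which the region was not kept. Casc1/Etfrf1 stays at the top in all 9 libraries, Psmb9/Tap1 lies lower in B16_NT than in the other groups, and Aifm1/Rab33a and Cetn2/Nsdhl are not kept in the 3 libraries of 499_NT.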

How the data were processed

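The 9 libraries were analysed from the deposited peak lists. Per the submitters' processing notes, reads were handled with CASAVA, cutadapt 1.9 and Bowtie2 2.2.4, and peaks called per library with MACS2 on GRCm38. The MACS2 version, settings and any insertion shift are not given in the sources used here. The deposited columns hold an integer score, a fold enrichment (ratio over local background) and −log10 of p and q values. The 9214 peaks with the highest −log10 p per library, the length of the shortest list on chromosomes 1 to 19 and X, were merged where they overlapped. Gene ends came from RefSeq GRCm38.p6, and strand (79.87% of coding genes) from its promoter table. Summit pileup was the whole number of fragments that, with the deposited fold, gives the deposited −log10 p within 0.01 (at least 99.9867% of peaks per library). Depth was not given, and counting error was not computed. The lowest background recovered with the pileup, per kb of the shortest peak, was 10.82, 8.144 and 9.784 fragments in B16_NT. It was 9.168, 7.591 and 7.825 in B16_IFNy and 10.92, 8.675 and 11.15 in 499_NT. The relation of this background to depth was not tested.

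Library values were compared with exact two-sided permutation tests. Normal scores of rank were tested with limma 3.58.1 (R 4.3.3) over all regions called in 9 libraries, with Benjamini-Hochberg adjustment. On simulated scores for 499_NT against B16_NT over 4481 regions, limma recovered 76 of 100 shifts of 2.0 normal scores and 96 of 100 of 3.0. It called 11 (0.2569%) of the regions without a shift. Smaller shifts were not simulated, such as the 1.35 of Atraid/Slc5a6 in 499_NT against B16_NT. The -1.77 of Zfp511/Tubgcp2 in 499_NT against B16_IFNy is also smaller. Named regions were those with the best mean rank, the widest, the lowest limma p, every gained or lost region, fixed pairs, and leading members of fixed lists. A few regions that this rule names are counted but not reported here by name. Members, lists and pairs were chosen with earlier results of these data known. Alternatives varied the peaks kept, ranking, overlap, distance, libraries and covariates.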

Additional observations from a re-analysis of the deposited data

How the results depend on the processing

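The narrower width of shared regions in B16_IFNy and 499_NT kept its direction and passed its exact test under each alternative run, with differences of -231.2 to -175.2 bp when single libraries were left out. With the replicate number as a block it was -210.5 bp (exact permutation p = 0.037). Whether the numbers pair the libraries was not settled. Same-numbered libraries of different groups had rank deviations that correlated between -0.0285 and 0.09 over 9 pairs, none above 0.1. For differently numbered libraries the range was -0.0893 to 0.0637 over 18 pairs. Weak correlations cannot exclude shared handling. The block changed no call for shared regions, of which limma with the block called 0; over all 4481 regions it removed the 1 call made without it, as higher in both groups against B16_NT. The call share difference turned to -12.78 points with all deposited peaks, where list lengths are unequal. It turned to -20.7 points at 50% overlap, a setting that also reflects width. The rank percentile difference turned to -2.364 with 4607 peaks per library and -0.6096 at 50% overlap, and ranged from -0.8086 to 0.5933 with single libraries left out; it turned negative without B16_NT replicate 2, B16_IFNy replicates 1 or 3, or 499_NT replicate 3. The cause was not tested.

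Shared minus one-end rank percentile passed with all deposited peaks (2.165, exact permutation p = 0.00781) and at 50% overlap (1.828, exact permutation p = 0.0195), turned to -0.4184 when peaks were ranked by fold enrichment, and ranged from 0.8011 to 1.721 with single libraries left out. It passed without B16_IFNy replicate 2 (exact permutation p = 0.0312).

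Counts of gained and lost regions moved most. For B16_IFNy against B16_NT, 5 gained and 2 lost became 3 and 8 with 4607 peaks, 0 and 18 with all peaks and 8 and 5 by fold enrichment, and 44 were lost at 50% overlap. For 499_NT against B16_NT, 11 gained and 9 lost became 0 and 36 with all peaks and 3 and 58 at 50% overlap. Of all regions, 4.91% (B16_IFNy) and 8.06% (499_NT) were lost against B16_NT with all peaks, and 5.08% and 7.96% at 50% overlap. List lengths are unequal with all peaks, and the 50% rule also reflects width. For 499_NT against B16_IFNy, 5 gained became 9 with 4607 peaks, 1 with all peaks and 3 with gene ends within 500 bp. With single libraries left out, which asks for fewer agreeing libraries, the counts ranged from 5 to 26 gained and 2 to 13 lost, 11 to 35 and 9 to 23, and 5 to 16 and 10 to 23, in that order of comparisons. The limma fit over regions called in at least 3 libraries, added after seeing the data, called 1 shared region higher and 1 lower in B16_IFNy against B16_NT, 1 and 2 in 499_NT against B16_NT, 2 and 3 in 499_NT against B16_IFNy, and 1 lower in both against B16_NT; the other alternatives called 0. Peak lists without depths limit width, pileup and calls alike.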

Other observations

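The X chromosome stood out among the regions lost in 499_NT, and it was looked at after those values were seen. Of the 26 shared regions on X, 8 to 10 were called per library in 499_NT, against 13 to 21 in B16_NT and 14 to 17 in B16_IFNy. On the autosomes the groups overlapped, with 74.2% to 80.9% of 1541 shared regions called in B16_NT, 75% to 79.8% in B16_IFNy and 75.3% to 82.0% in 499_NT. The difference was not limited to shared regions. Of all 278 open regions on X, 31.7% to 36.3% were called in 499_NT, 43.2% to 64.7% in B16_NT and 39.2% to 54.7% in B16_IFNy. Of 150 one-end regions on X, 32% to 45.3% were called in 499_NT, below the 48.7% to 74% of B16_NT and overlapping the 40.7% to 58.7% of B16_IFNy. No test was made, since the chromosome was chosen for its values.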
